A study of Mus musculus with 8 samples.

Results

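The miR-99/100 and miR-125 families of microRNAs (miRNAs, short RNAs that guide repression of matching messenger RNAs) were followed in splenic CD8+ T cells of newborn and adult mice. The members were mmu-miR-99a-5p, mmu-miR-99b-5p, mmu-miR-100-5p, mmu-miR-125a-5p and mmu-miR-125b-5p (mmu for Mus musculus, omitted below), chosen by name as 5 of the 1978 mature miRNAs in the deposited count table. Small RNA had been sequenced from C57BL/6 mice, an inbred strain with no altered allele or treatment named in the labels. The neonatal mice were 5 to 7 days old (n = 4 libraries) and the adult mice 12 weeks old (n = 4 libraries). CD8+ cells, the T lymphocytes that kill infected cells, were enriched from spleen suspensions with magnetic beads, so some other spleen cells can remain. Whether each library stands for its own animal or for a pool is not stated in the labels. P-values therefore measure the spread between these libraries, which may be technical.

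miR-125 is the vertebrate counterpart of lin-4, the miRNA that with let-7 times development in the worm Caenorhabditis elegans. In mammals the hairpins of the miR-99/100 and miR-125 families lie in clusters around a let-7 hairpin, so that a single transcript can carry a member of each family. miR-99 and miR-100 are known to repress mTOR, a kinase of cell growth and metabolism, and miR-125 members are known from blood stem cells, where an excess expands the stem cell pool.

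A miRNA finds its targets mainly through its seed, bases 2 to 8. The mature sequences (RefSeq, build GRCm38.p6) are shown because the results turn on which miRNAs share a seed, given in capitals from the 5′ end. Of 1679 mature miRNAs with a sequence in the reference, 3 held the seed of miR-99 and miR-100 and 5 held that of miR-125.
miR-99a-5p: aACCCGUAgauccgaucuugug
miR-100-5p: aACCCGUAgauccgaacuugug
miR-99b-5p: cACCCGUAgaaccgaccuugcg
miR-125a-5p: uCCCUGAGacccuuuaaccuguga
miR-125b-5p: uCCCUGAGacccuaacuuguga
miR-351-5p: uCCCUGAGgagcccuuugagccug
Among the 1679, miR-351-5p, from a rodent hairpin on the X chromosome, is the other miRNA with the miR-125 seed that had counts. The rest of the 1978 miRNAs in the count table had no sequence to check for a seed. miR-6367 and miR-6394 share this seed and had a count of 0 in all 8 libraries. miR-100-5p and miR-99a-5p differ by the single substitution A16U (miR-100-5p first, counted from the 5′ end). Both differ from miR-99b-5p by 4 substitutions. A read with a sequencing error at position 16 could be counted for the wrong one of miR-99a-5p and miR-100-5p.

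Each member of the mir-99b locus fell and each member of the other loci rose in neonatal cells. miR-125a-5p was 10.2-fold and miR-99b-5p 3.02-fold lower than in adult cells, while miR-125b-5p was 2.59-fold, miR-100-5p 2.46-fold and miR-99a-5p 1.54-fold higher. All 5 members passed the quasi-likelihood test of edgeR (Benjamini-Hochberg adjusted p under 0.05), 3 as higher and 2 as lower. In the same fit 63.2% of all 375 miRNAs tested passed, 29.1% as higher and 34.1% as lower. The libraries of the age groups did not overlap for any of the 5, as was the case for 57.3% of all miRNAs tested. In such bulk samples, fewer cells of a type and less RNA per cell cannot be told apart.

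Levels below are in CPM, counts scaled by library total and by a TMM factor (a trimmed mean over miRNAs). Each log2 fold change is neonatal over adult, followed by its standard error (SE). Libraries held 1281032 to 2606630 counts, a single count being worth 0.384 to 0.781 CPM before the TMM factor. The members had 27 to 1780 counts in a library. With library totals in place of TMM, the median log2 fold change of all miRNAs was higher by 0.63, and the share of higher ones among the changed miRNAs was 73.2%, against 46.0% with TMM. Directions of the members were the same with both. Adapters are ligated with sequence preferences, so the level of a miRNA was compared between libraries and not with that of another miRNA.

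**Figure D1:**
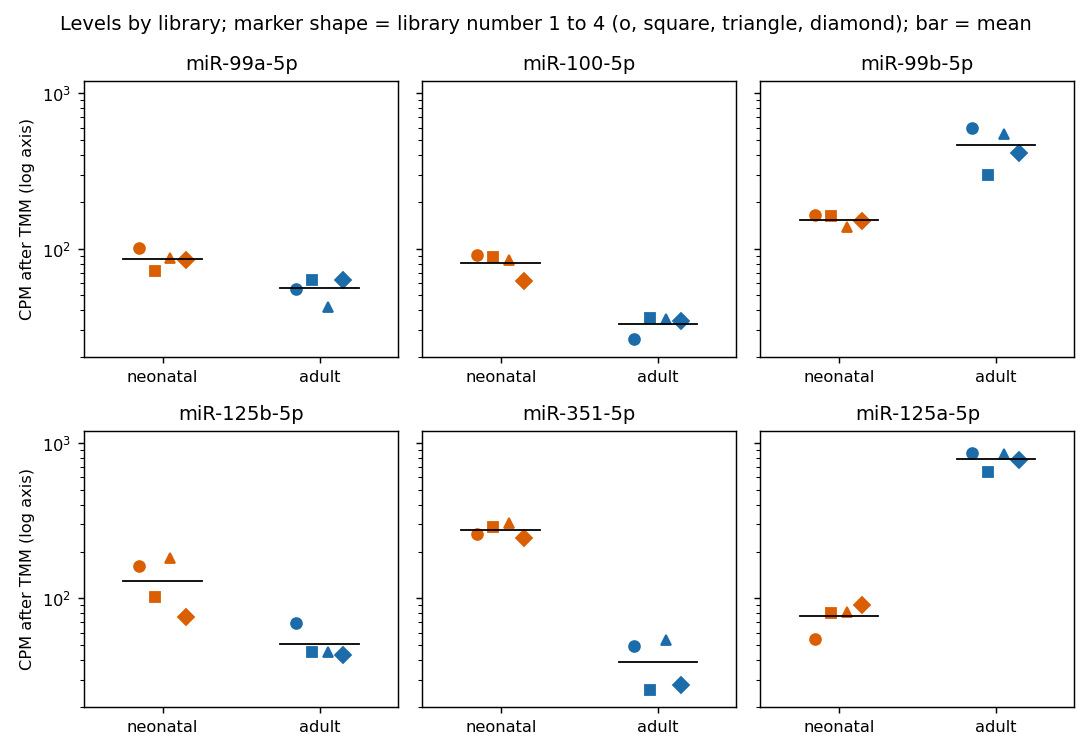
CPM after TMM scaling (log axis) of the 5 members and miR-351-5p in the 4 neonatal and 4 adult libraries, 1 point per library, with the mean as a bar. miR-99b-5p and miR-125a-5p are lower in all neonatal libraries (138 to 164 and 54.4 to 90.1 CPM) than in any adult library, and the other 4 miRNAs are higher.

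miR-125a-5p showed the sharpest change of the family. Its level was 54.4, 80.1, 81.9 and 90.1 CPM in neonatal libraries 1 to 4 and 869, 655, 846 and 779.9 CPM in adult libraries 1 to 4. The lowest adult library was thus far above the highest neonatal one. The mean was 76.6 ± 15.4 CPM (SD, n = 4) in neonatal and 787 ± 95.7 CPM (SD, n = 4) in adult cells, a log2 fold change of -3.36 ± 0.19 (SE; edgeR adjusted p = 2.78e-08). By size this fall ranked 5 among the 375 miRNAs tested.

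miR-99b-5p is cut from the hairpin next to that of let-7e, upstream of mir-125a. It stood at 164, 162, 138 and 150.1 CPM in neonatal libraries 1 to 4 and at 601, 297, 548 and 411 CPM in adult libraries 1 to 4. The neonatal libraries were close to each other, whereas the adult ones were spread, with adult library 2 the lowest and still above every neonatal library. Its mean was 154 ± 11.9 CPM in neonatal and 464 ± 137 CPM in adult cells, and the log2 fold change was -1.59 ± 0.21 (SE; edgeR adjusted p = 3.38e-05).

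let-7e-5p, whose hairpin lies between those of miR-99b and miR-125a, also fell. Mean levels were 125.3 ± 19.7 CPM (neonatal) and 221 ± 45.7 CPM (adult; log2 fold change -0.82 ± 0.19, edgeR adjusted p = 0.00202), and some of its counts are shares of reads that also match other let-7 miRNAs. With library totals its change was -0.18 and did not pass (edgeR adjusted p = 0.441). On the TMM scale all guide strands of this cluster were therefore lower, by amounts that ranged from the small change of let-7e-5p to that of miR-125a-5p. For let-7e-5p the call depended on that scaling.

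miR-100-5p, the miR-99 relative on chromosome 9, went the other way. It reached 90.7, 88.1, 84.9 and 61.8 CPM in neonatal libraries 1 to 4 against 26.2, 35.7, 35.2 and 34.1 CPM in adult libraries 1 to 4. Neonatal library 4 was the lowest of its group and still above all adult ones. Means were 81.4 ± 13.2 and 32.8 ± 4.44 CPM, with a log2 fold change of 1.30 ± 0.20 (SE; edgeR adjusted p = 0.000115).

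miR-125b-5p, which differs from miR-125a-5p outside the seed and is known to hold back differentiation genes in naive CD4+ T cells, rose by a similar amount but varied more between neonatal libraries. Its neonatal levels were 161, 103, 181 and 75.8 CPM and its adult levels 68.9, 45.5, 45.1 and 43.1 CPM in libraries 1 to 4. The lowest neonatal and the highest adult library were close. The means were 130.0 ± 49.1 and 50.7 ± 12.2 CPM (log2 fold change 1.37 ± 0.28, edgeR adjusted p = 0.00105).

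miR-99a-5p showed the smallest rise. Neonatal libraries 1 to 4 held 100.3, 72.1, 86.6 and 84.7 CPM and adult libraries 1 to 4 held 55.3, 63.0, 41.8 and 63.2 CPM, which left a narrow gap between the groups. Means were 85.9 ± 11.5 and 55.8 ± 10.0 CPM, with a log2 fold change of 0.62 ± 0.20 (edgeR adjusted p = 0.0143). For the log2 fold change of miR-99a-5p the call was lost without adult library 3 (0.54, edgeR adjusted p = 0.0511) and with an offset for GC content (0.48, edgeR adjusted p = 0.0565). In libraries 1 and 3 alone the change was 1.10 (edgeR adjusted p = 0.000373) and in libraries 2 and 4 alone 0.28 (edgeR adjusted p = 0.331).

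**Figure D2:**
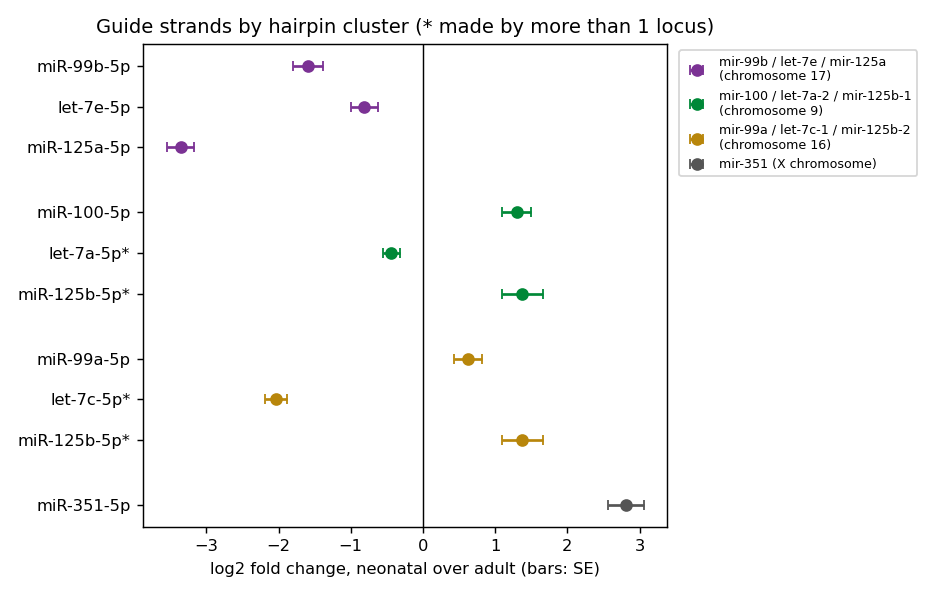
Log2 fold change (neonatal over adult, points) with its SE (bars) of the guide strands, ordered by hairpin cluster. All 3 guides of the chromosome 17 cluster lie below 0 on the TMM scale, whereas miR-100-5p, miR-99a-5p and miR-125b-5p lie above it and let-7a-5p and let-7c-5p, which have a further locus each, below it (let-7a-5p above it with library totals).

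The members lie in 3 clusters (mm10, with positions from GENCODE M21 that were the same in RefSeq). Mir99b (chromosome 17, 17830188 to 17830257), Mirlet7e (17830352 to 17830444) and Mir125a (17830812 to 17830879) lie within 692 bases on the plus strand. The first pair is in an intron of Spaca6, a protein-coding gene named for its role in sperm, and Mir125a in an annotated Spaca6 exon. Mir100 (chromosome 9, 41531425 to 41531504), Mirlet7a-2 (41536716 to 41536811) and Mir125b-1 (41581926 to 41582002) spread over 50578 bases in introns of the noncoding gene 3110039I08Rik. Mir100 also overlaps an exon of Gm48742 on the opposite strand, and Mir125b-1 an exon of Gm28119 on its own strand. Mir99a (chromosome 16, 77598936 to 77599000), Mirlet7c-1 (77599657 to 77599750) and Mir125b-2 (77646273 to 77646343) spread over 47408 bases in introns of the noncoding gene Mir99ahg.

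miR-99a-5p, miR-100-5p, miR-99b-5p and miR-125a-5p each come from a single locus, and their counts were whole numbers in every library. miR-125b-5p comes from chromosomes 9 and 16 with the same mature sequence. Its deposited counts were split nearly evenly between the copies, for example 151 and 151 in neonatal library 1 and 44 and 42 in adult library 4. The share of each locus in its rise therefore cannot be told apart. The same holds for let-7a-5p and let-7c-5p, whose other copies lie outside these clusters. The opposite arms of the cluster copies were nearly absent, let-7a-2-3p with a count of 0 in all libraries and let-7c-1-3p with at most 2. Those of the outside copies, let-7a-1-3p and let-7c-2-3p, had at least 511 counts in every library. Their counts were nearly the same throughout, such as 800 and 799 in neonatal library 2. They may therefore be shares of the same reads and not separate signals of each outside copy. The log2 fold change of let-7a-5p rested on means of 53387 ± 3137 CPM (neonatal) and 72353 ± 4840 CPM (adult; log2 fold change -0.44 ± 0.12, edgeR adjusted p = 0.00517). With library totals it was 0.20 and did not pass, and with the GC offset it was near 0 (-0.00141, edgeR adjusted p = 0.993). let-7c-5p fell from 29284 ± 4815 to 7134 ± 765 CPM (-2.04 ± 0.15, edgeR adjusted p = 3.22e-07).

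Ratios of 2 miRNAs within the same library do not depend on how libraries are scaled. They were computed as the log2 of the ratio of counts, with 0.5 added to each, for 18 pairs: all pairs of members, members with the let-7 guide of their cluster, and miR-351-5p with both miR-125 members. The exact permutation test (two-sided, n = 4 per group) has a smallest p of 0.0286, which becomes 0.0343 when adjusted over the 18 pairs. With no overlap between the groups, 15 pairs reached it. The pairs reuse miRNAs that each passed the edgeR test, so this count is not a separate result. The share among other pairs of miRNAs was not computed.

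Within the miR-125 family the ratio of the members changed with age. The log2 ratio of miR-125a-5p to miR-125b-5p was 3.65, 3.84, 4.22 and 4.17 in adult libraries 1 to 4 and -1.56, -0.36, -1.14 and 0.25 in neonatal libraries 1 to 4. The group means of 3.97 ± 0.27 and -0.70 ± 0.81 differed by -4.67, a 25.5-fold change of the ratio (exact permutation test, adjusted p = 0.0343). Neonatal library 4 was the only neonatal library with more counts of miR-125a-5p than of miR-125b-5p.

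In the miR-99/100 family the same comparison gave smaller shifts. The log2 ratio of miR-99a-5p to miR-99b-5p moved from -3.02 ± 0.67 in adult to -0.84 ± 0.22 in neonatal libraries, and that of miR-99b-5p to miR-100-5p from 3.77 ± 0.61 to 0.93 ± 0.24. Both passed (exact permutation test, adjusted p = 0.0343). miR-99a-5p, which shares all but 1 base with miR-100-5p, rose less than the latter by 0.67 on the log2 scale. That difference did not pass (adult ratio 0.75 ± 0.35, neonatal ratio 0.08 ± 0.31, exact permutation test adjusted p = 0.0643), and the groups overlapped.

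miRNAs of the same cluster did not move by equal amounts on chromosome 17. The log2 ratio of miR-99b-5p to miR-125a-5p was -0.81 ± 0.28 in adult and 1.02 ± 0.40 in neonatal libraries, so miR-125a-5p fell further than miR-99b-5p by 1.83. The ratio of miR-99b-5p to let-7e-5p changed by -0.74 and that of miR-125a-5p to let-7e-5p by -2.57. All 3 ratios passed (exact permutation test, adjusted p = 0.0343).

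miR-125b-5p was counted over its copies on chromosomes 9 and 16, so its ratios are not those of a single cluster. The ratio of miR-100-5p, from chromosome 9, to miR-125b-5p was -0.61 ± 0.42 in neonatal and -0.61 ± 0.52 in adult libraries (exact permutation test, adjusted p = 1). The library values ranged from -1.09 to -0.22 and from -1.38 to -0.34. The ratio of miR-99a-5p, from chromosome 16, to miR-125b-5p changed by -0.67 and did not pass (exact permutation test, adjusted p = 0.121). Against let-7a-5p and let-7c-5p, counted over copies inside and outside these clusters, the members rose in every comparison. The ratio to let-7c-5p changed by 2.66 for miR-99a-5p and by 3.33 for miR-125b-5p, and the ratio to let-7a-5p by 1.73 for both miR-100-5p and miR-125b-5p (exact permutation test, adjusted p = 0.0343 for all 4).

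**Figure D3:**
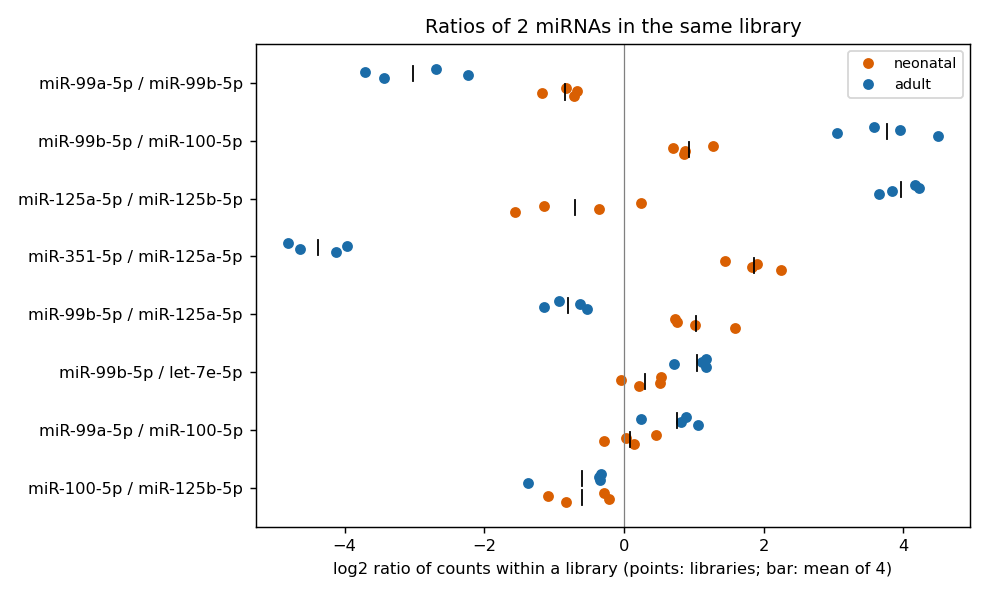
Log2 ratio of the counts of 2 miRNAs within a library (points, 4 neonatal and 4 adult libraries; bars are means). The age groups are apart for the upper 6 ratios, such as miR-125a-5p over miR-125b-5p at 3.65 to 4.22 in adult and -1.56 to 0.25 in neonatal libraries, and overlap for the lower pair of ratios.

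miR-351-5p rose most among the miRNAs with the miR-125 seed. Its hairpin is intergenic on the X chromosome (53053255 to 53053353, minus strand), where it neighbours mir-322 and mir-503. It stood at 258, 287, 308 and 245 CPM in neonatal libraries 1 to 4 and at 49.5, 25.9, 53.7 and 27.6 CPM in adult libraries 1 to 4, with a log2 fold change of 2.81 ± 0.24 (edgeR adjusted p = 1.12e-06). Its log2 ratio to miR-125a-5p went from -4.39 ± 0.40 in adult to 1.86 ± 0.33 in neonatal libraries, and its ratio to miR-125b-5p from -0.42 ± 0.46 to 1.15 ± 0.51 (exact permutation test, adjusted p = 0.0343 for both).

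The makeup of each seed group by counts is given as a description, since ligation preference weights its members unequally. miR-125a-5p made up 88.0% to 91.7% of the counts with the miR-125 seed in adult libraries and 11.5% to 21.9% in neonatal ones. miR-351-5p took 3.24% to 5.68% in adult and 54.0% to 61.1% in neonatal libraries, and miR-125b-5p 4.78% to 6.98% and 18.5% to 34.0%. The leading miRNA of this seed was thus miR-125a-5p in all 4 adult libraries and miR-351-5p in all 4 neonatal ones.

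miR-99b-5p led the miR-99/100 seed in both groups, with 75.1% to 88.1% in adult and 44.7% to 50.6% in neonatal libraries. miR-99a-5p went from 10.8% ± 4.2 in adult to 26.8% ± 2.95 in neonatal libraries and miR-100-5p from 6.30% ± 2.16 to 25.3% ± 3.08 (SD, n = 4). Each share rests on 566 to 1988 counts, with a 95% Wilson interval of at most 3.78 percentage points to either side, for counting error only. On the TMM scale, summed levels with the miR-125 seed were 481 ± 66.1 CPM (neonatal) and 877 ± 115 CPM (adult). Those with the miR-99/100 seed were 321 ± 25.1 and 553 ± 127 CPM. Neither sum was tested.

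**Figure D4:**
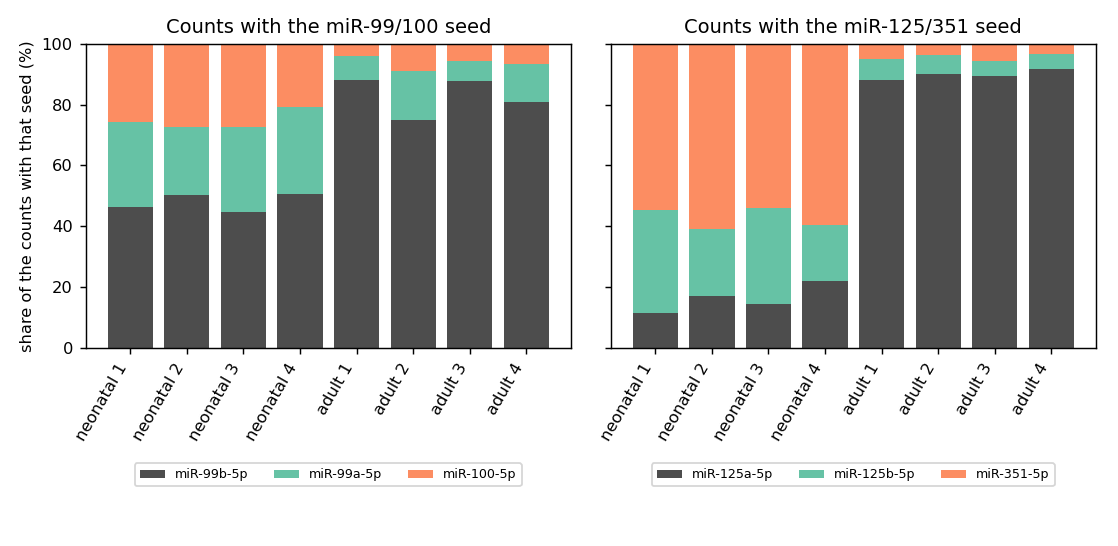
Share of counts (%) taken by each miRNA among those with the miR-99/100 seed (left) and the seed of miR-125 and miR-351 (right), 1 stacked bar per library. miR-125a-5p takes 88.0% or more of its seed group in every adult library and at most 21.9% in every neonatal library.

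The opposite arms of the member hairpins were scarce, and no member hairpin had both arms past the filter on low counts. The hairpins of mir-125a and mir-100 (RefSeq, GRCm38.p6, plus strand, 5′ to 3′) are shown as a falling and a rising example, with the guide strand in capitals. The other arm begins at base 44 of the mir-125a hairpin and at base 47 of the mir-100 hairpin.
mir-125a: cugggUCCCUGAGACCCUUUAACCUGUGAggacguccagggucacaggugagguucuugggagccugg
mir-100: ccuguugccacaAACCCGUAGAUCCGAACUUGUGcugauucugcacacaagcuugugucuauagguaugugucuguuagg
miR-125a-3p had 4 to 9 counts in neonatal and 5 to 16 in adult libraries. For each of its counts there were 20.4 to 63.0 counts of miR-125a-5p in neonatal and 111 to 222 in adult libraries, ranges that did not overlap. This ratio of arms was singled out after its values were seen and was not tested. miR-99b-3p had 4 to 15 and 4 to 17 counts, with 28.3 to 79.5 and 48.2 to 192 guide counts per count of this arm. miR-100-3p and miR-99a-3p had a count of 0 in all libraries, which allows up to 3 counts in each. The 3p arms that would separate the miR-125b copies, miR-125b-1-3p and miR-125b-2-3p, had at most 1 count in a library.

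The miRNAs whose course over the 8 libraries was most like each member were named by the root mean square difference of centred log2 CPM, among those with at least 100 CPM in either group. Nearest to miR-125a-5p were miR-146a-5p, which dampens NF-kB signalling (0.34), miR-29a-3p (0.35) and miR-101a-3p (0.38). Nearest to miR-99b-5p were miR-150-5p, abundant in mature lymphocytes (0.15), miR-155-5p, needed for effector responses (0.24), and miR-15b-5p (0.31). miR-100-5p was closest to miR-296-3p (0.16), miR-744-5p (0.22) and miR-181b-5p (0.23). miR-125b-5p was closest to miR-1981-5p (0.20), miR-181a-2-3p (0.27) and the red cell miRNA miR-486a-5p (0.30). miR-99a-5p was closest to miR-182-5p (0.23), miR-148b-3p (0.24) and miR-128-3p (0.28). No member was among the 3 nearest to another member, but miR-99a-5p and miR-100-5p, below 100 CPM in both group means, could not be listed. Without that limit the closest 2 members were miR-100-5p and miR-125b-5p (0.41, rank 24 from miR-125b-5p). miR-99b-5p and miR-125a-5p of the same cluster differed by 0.96.

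Other miRNAs linked to blood stem and progenitor cells did not move in a single direction. Of 8 on this list 4 had enough counts to test. miR-126a-3p rose (1.25 ± 0.20), miR-155-5p (-1.75 ± 0.15) and let-7e-5p fell, and miR-181c-5p stood at -0.03 ± 0.20 (edgeR adjusted p = 0.908; 0.59 and edgeR adjusted p = 0.0125 with library totals). The median log2 fold change of the 4 was -0.42, against -0.05 over all miRNAs tested. miR-10a-5p and miR-10b-5p, from an ancient related family of the Hox gene clusters, were at -0.47 ± 0.26 and 1.51 ± 0.24. Of these only miR-10b-5p passed (edgeR adjusted p = 0.00015). miR-10a-5p did not (edgeR adjusted p = 0.129; with a block for replicate, adjusted p = 0.047), and its change was 0.17 with library totals.

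Markers of other spleen cells were read beside miR-99a-5p, miR-100-5p and miR-125b-5p, which are also known from stromal and endothelial cells. Those of endothelial and red cells that could be tested rose, stromal ones did so in part, and myeloid ones were too scarce to test. The 8 stromal miRNAs summed to 119.7 to 174 CPM (neonatal) and 39.9 to 87.4 CPM (adult), and the 3 with enough counts to test rose (median 1.07), namely miR-10b-5p, miR-143-3p (1.07 ± 0.35) and miR-199a-3p (0.97 ± 0.30). The call of the log2 fold change of miR-143-3p was lost without adult library 1 (0.97, edgeR adjusted p = 0.0649) or adult library 4 (1.07, edgeR adjusted p = 0.0628). In libraries 2 and 4 alone neither it (0.50, edgeR adjusted p = 0.159) nor the log2 fold change of miR-199a-3p (0.52, edgeR adjusted p = 0.186) passed. miR-10b-5p made up 41.8% to 49.4% of the neonatal and 29.2% to 44.0% of the adult sums, and the sums without it were 69.7 to 87.9 and 22.3 to 58.1 CPM. The other 5 stromal miRNAs together stood at 5.33 to 11.1 CPM (neonatal) and 5.60 to 16.5 CPM (adult). Among these, miR-199a-5p had means of 1.19 CPM (neonatal) and 3.00 CPM (adult), miR-199b-5p 2.45 and 3.77 CPM, and miR-145a-5p at most 2 counts in any library. Both endothelial miRNAs rose (median 1.51), but they are the arms of a single hairpin, miR-126a-3p and miR-126a-5p, and the former also stands in the progenitor list. Together they had sums of 125.3 to 160.1 and 46.6 to 76.9 CPM. The 5 erythroid miRNAs summed to 308 to 774 and 120 to 251 CPM, and all 3 tested rose (median 1.82). Of these, miR-486a-5p and miR-486b-5p had nearly the same counts in every library, such as 660 and 688 in neonatal library 1. They may therefore not be separate signals, and the other tested miRNA, miR-451a, was at 0.97 ± 0.22. Neither myeloid miRNA had enough counts to test, with sums of 3.48 to 8.53 and 2.85 to 9.09 CPM. Their part in the rise of the 3 members was not tested. On the TMM scale, 4 of the 5 lymphocyte miRNAs, all abundant, fell and none rose (median -1.34). Over all miRNAs tested, 34.1% were lower and 29.1% higher. The age groups overlapped for miR-142a-3p (-1.34 ± 0.32), and miR-181a-5p did not pass (0.21 ± 0.14, edgeR adjusted p = 0.193). With library totals, log2 fold changes over all miRNAs were higher by 0.63 on average. The calls of miR-181a-5p and of miR-342-3p (-0.72 ± 0.19 with TMM) may therefore differ on that scale. The lymphocyte sum was 72894 to 75656 CPM (neonatal) and 143404 to 209949 CPM (adult). Most of it was miR-150-5p (means 54280 and 140425 CPM), whose log2 fold change was -0.74 with library totals (edgeR adjusted p = 0.00317). The sum went in the direction of miR-99b-5p and miR-125a-5p, and its part in their fall was not tested either.

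**Figure D5:**
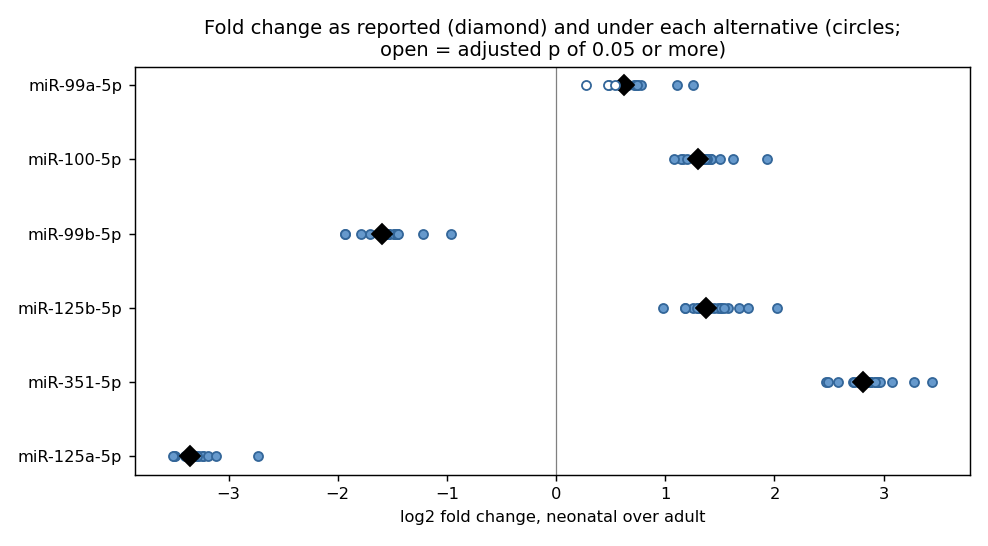
Log2 fold change (neonatal over adult) of the members and miR-351-5p as reported (diamonds) and under 20 alternative settings (circles, open where the adjusted p was 0.05 or more). No fold change crosses 0, and the open circles belong to miR-99a-5p, whose values run from 0.28 to 1.26.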

How the data were processed

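The values the authors deposited are estimated counts, without normalization, for each pair of mature miRNA and hairpin. The build is mm10, per the submitters' processing notes. Aligner, counting tool and annotation of miRNAs were each not given in the sources used here. Among non-zero values 71.4% were whole within 0.001, and reads matching several precursors were split. Counts were summed over precursors and rounded. miRNAs were filtered with filterByExpr (minimum count 10, minimum total 15), leaving 375, and tested with edgeR 4.0.16 in R 4.3.3 (quasi-likelihood F test, TMM, robust dispersion, age as the only term, Benjamini-Hochberg at 0.05 over all miRNAs). SEs were derived from the F value of each fold change. Alternatives used DESeq2 1.42.0, limma-voom (limma 3.58.1), other scalings and filters, a GC offset from the mature sequence, a replicate block and left-out libraries. On simulated counts edgeR recovered 86.1% of 36 changes of 2-fold and all 41 of 4-fold, with 371 miRNAs tested. The simulated rises and falls were drawn in equal numbers, with a single dispersion for all miRNAs. The simulation therefore does not check the scaling where 63.2% of miRNAs are called, as in these data. No library duplicated another (chi-square over its degrees of freedom 19.1 to 394 for pairs of a group).

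Replicate numbers 1 to 4 occur in both groups. Deviations from group means correlated at r = 0.241 to 0.387 in all 4 same-numbered pairs. Unlike-numbered pairs reached r = 0.463 (neonatal 4 with adult 2) and r = 0.381 (neonatal 3 with adult 1), so the check does not single out same-numbered libraries. The tests reported are unpaired, with the replicate block as an alternative, and libraries 1 and 3 and libraries 2 and 4 were also fitted alone because they deviated alike across groups. Arm ratios were tested with limma over 102 hairpins (44 changed), none of a member. The members, lists and tests were chosen with earlier results of these data known. Named miRNAs were the members, miRNAs sharing their seed, let-7 guides and other arms of their clusters, the 3 most alike per member (pseudocount 0.5 CPM), and examples from each list. Further progenitor, stromal and endothelial miRNAs were named after their values were seen.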

Additional observations from a re-analysis of the deposited data

Results flagged for a closer look

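Outlying libraries were sought for 36 miRNAs in each age group, 72 groups of 4 in all, by the gap of the extreme library to its neighbour relative to the range (Dixon's 95% critical value). Chance flags about 1 in 20 groups, and 4 were found, about as many as chance gives. In adult library 1 miR-100-5p was lowest at 26.2 CPM, with the other adult libraries at 34.1 to 35.7 CPM, and miR-125b-5p was highest at 68.9 CPM, with the others at 43.1 to 45.5 CPM. miR-181b-5p was lowest in neonatal library 1 at 1995 CPM (others 2429 to 2504 CPM), and miR-10a-5p was lowest in neonatal library 4 at 21.8 CPM (others 44.4 to 48.0 CPM).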

How the results depend on the processing

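miR-99b-5p, miR-100-5p, miR-125a-5p, miR-125b-5p and miR-351-5p kept direction and call under all 20 alternatives, and miR-99a-5p under 17 with its direction kept in all. With library totals 186 miRNAs were higher and 68 lower, in place of 109 and 128, let-7a-5p turned to 0.20, miR-10a-5p to 0.17 and miR-181c-5p to 0.59. The log2 fold change of miR-181c-5p, near 0 as reported, also turned with RLE scaling (0.0871), DESeq2 (0.0871), no filter (0.0529) and libraries 2 and 4 alone (0.12), and ran from -0.15 to 0.14 with a library left out. Without a pseudocount the ratio of miR-100-5p to miR-125b-5p, which was not called, turned to 0.0031. With the replicate number as a block 265 miRNAs changed in place of 237, the members kept their calls (log2 fold change of miR-99a-5p 0.62, edgeR adjusted p = 0.00884), and of the 36 miRNAs followed under every alternative miR-10a-5p alone gained one (-0.51). Ratios within same-numbered pairs cannot go below p = 0.125 in the exact sign-flip test, nor below 0.0571 with a library left out, so those are values without a test. The fits in libraries 1 and 3 or 2 and 4 alone were added after seeing the data. Depth limits the 3p arms, which had at most 17 counts.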
